A study of Mus musculus with 12 samples.

Results

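The 10 immediate early genes Fos, Fosb, Jun, Junb, Egr1, Ier2, Ier3, Klf6, Myc and Dusp1 were followed in RNA-seq of mouse liver. They were chosen by symbol, and each matched 1 of the 55903 genes in the deposited table. The table holds 12 liver libraries in 3 groups of 4. The KSL0608-Se treated group carries the compound code KSL0608-Se and also the word doxo in its labels. The aged/doxo group is labelled aged in its titles and doxo in its descriptions, and the labels do not spell doxo out or say which of age and doxo it stands for. The young control group is labelled young and control. The sources used here give no strain, sex, age in weeks, dose or time after treatment. The labels number the libraries of a group as replicates without tying them to animals. The p-values therefore reflect how far these libraries spread, which may be technical. By its title, the study concerns senolysis, the removal of senescent cells, by a photoactivated agent.

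Immediate early genes are transcribed within minutes of a stimulus because the factors that switch them on are already present in the cell. Growth factors, cytokines and stress act through MAP kinases and cAMP signalling on serum response factor, its ternary complex partners and CREB, which bind the promoters of these genes. Their transcripts are short-lived, and in liver they are known for a rapid, brief rise after partial hepatectomy. Fos and Jun proteins pair through leucine zippers to form AP-1, whereas Dusp1 is part of the feedback that ends MAP kinase signalling.

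No member passed the test in any comparison of groups. Of the 7 members that averaged at least 1 TPM (TPM being a length-adjusted share of each library's transcripts), limma called 0 in each of the 3 comparisons after adjustment over all 10883 genes tested. The share of all tested genes called was 0.00919% for aged/doxo against young control, 0.00919% for KSL0608-Se treated against aged/doxo and 0.0276% for KSL0608-Se treated against young control. At an unadjusted limma p under 0.05 the member count was also 0 in each comparison, against 1.98%, 4.77% and 3.4% of all tested genes in the same order. That unadjusted count depends on the scaling: with median-of-ratios scaling or quantile normalization it was 1 in each comparison, Junb (higher) for aged/doxo against young control, Ier2 (lower) for KSL0608-Se treated against aged/doxo and Jun (lower) for KSL0608-Se treated against young control. With the library's slope on gene length as a covariate it was 2 in each, the same gene and Myc. In the same order of comparisons, the share of all tested genes was 3.27%, 5.04% and 3.3% with median-of-ratios scaling. It was 3.21%, 5.49% and 3.38% with quantile normalization, and 3.45%, 1.55% and 3.4% with the covariate. The adjusted count stayed at 0 under these settings. For 9 members, all but Fosb, a two-sided exact permutation test was run in each comparison, and 0 of these 27 tests had p under 0.05. The smallest p that 4 against 4 libraries allow is 0.0286. What the data do show is a large spread of some members between libraries of the same group, given below gene by gene. In whole liver, fewer cells of a type and less RNA per cell cannot be told apart.

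The libraries were checked against liver markers. The summed level of 6 hepatocyte markers was 58197 to 69005 TPM in KSL0608-Se treated, 38956 to 70625 TPM in aged/doxo and 44690 to 63688 TPM in young control libraries. Neutrophil and monocyte markers summed to no more than 4.81, 8.5 and 7.93 TPM in those groups, and T, NK and B cell markers to no more than 4.49, 5.65 and 5.05 TPM. Kupffer cell and macrophage markers summed to 129 to 193 TPM in KSL0608-Se treated, 54.2 to 333 TPM in aged/doxo and 127 to 213 TPM in young control libraries. Erythroid markers summed to 846 to 1778 TPM in KSL0608-Se treated, 1839 to 2568 TPM in aged/doxo and 836 to 1991 TPM in young control libraries, so the aged/doxo libraries lay above all treated ones. Of the 5 erythroid markers that passed the filter, 4 were higher in aged/doxo than in young control and 4 lower in KSL0608-Se treated than in aged/doxo at an unadjusted limma p under 0.05, and 0 after adjustment. Of 7 sinusoidal endothelial markers, 3 were higher in KSL0608-Se treated than in aged/doxo libraries at that unadjusted threshold and 0 after adjustment, with sums of 49.7 to 98.7 TPM and 30.4 to 70.1 TPM, beside 28.3 to 75.0 TPM in young controls. Of all tested genes, 1.98% passed that threshold for aged/doxo against young control and 4.77% for KSL0608-Se treated against aged/doxo. Of 9 Kupffer cell and macrophage markers, 1 was higher there in the latter comparison. Of the 6 stellate cell and fibroblast markers that passed the filter, 1 was higher and 1 lower in KSL0608-Se treated than in aged/doxo libraries at the unadjusted threshold. Against young control, 1 was higher in each of those groups, and 0 passed after adjustment. All markers of that list summed to 59.3 to 72.3 TPM in KSL0608-Se treated, 41.9 to 101.5 TPM in aged/doxo and 40.0 to 59.9 TPM in young control libraries. The part of these cells in the member values was not tested. Young control library 1 and aged/doxo library 2 stood apart, with 9568 and 9741 genes at 1 TPM or more, against 10263 to 11023 in the others. Mitochondrially encoded transcripts took 27.6% of all TPM in aged/doxo library 2 and 8.1% to 12.4% in the others. TPM does not keep the number of reads, and the depth of these libraries is unknown.

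The promoters are shown, for 3 AP-1 subunits and for the phosphatase Dusp1, because sites through which these genes are switched on can lie there. RefSeq sequence on GRCm38.p6 was matched by symbol for 7 of the 10 members. The 250 bases before the RefSeq start are given for 4 of them, 5′ to 3′ on the strand of the gene, with capitals for the motifs TGACG, TGACGTCA, TGACATCA and TATAAA on either strand.
Fos, chr12:85473640-85473889, plus strand: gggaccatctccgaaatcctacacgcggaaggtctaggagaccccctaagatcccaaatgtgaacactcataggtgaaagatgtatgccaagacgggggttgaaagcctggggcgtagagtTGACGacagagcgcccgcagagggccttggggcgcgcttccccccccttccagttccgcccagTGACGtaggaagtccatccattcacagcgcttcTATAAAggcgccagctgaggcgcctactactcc
Jun, chr4:95052223-95052472, minus strand: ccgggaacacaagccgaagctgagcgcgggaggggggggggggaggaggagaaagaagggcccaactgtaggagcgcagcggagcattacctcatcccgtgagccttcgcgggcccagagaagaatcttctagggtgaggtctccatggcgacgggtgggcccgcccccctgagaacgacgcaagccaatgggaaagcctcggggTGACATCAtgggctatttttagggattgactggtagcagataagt
Junb, chr8:84978749-84978998, minus strand: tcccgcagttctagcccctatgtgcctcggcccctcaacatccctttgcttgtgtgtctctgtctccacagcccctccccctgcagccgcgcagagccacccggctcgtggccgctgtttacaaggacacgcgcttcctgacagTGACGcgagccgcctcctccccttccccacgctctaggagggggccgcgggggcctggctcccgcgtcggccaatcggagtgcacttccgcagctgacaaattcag
Dusp1, chr17:26508473-26508722, minus strand: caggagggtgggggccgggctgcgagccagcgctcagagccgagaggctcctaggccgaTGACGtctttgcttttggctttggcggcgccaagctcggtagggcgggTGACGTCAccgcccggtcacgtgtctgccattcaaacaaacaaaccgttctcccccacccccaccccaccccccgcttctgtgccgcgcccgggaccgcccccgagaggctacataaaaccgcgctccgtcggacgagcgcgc

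TGACGTCA, the full cAMP response element recognised by CREB, was found in Dusp1 alone of the 7 member promoters and in 1.55% of all 32851 promoter windows of the same length. It lay 143 to 136 bases before the Dusp1 start. The shorter core TGACG, which that element contains on both strands, was found in Dusp1, Fos, Fosb and Junb, and in 17.8% of all windows. In Fos a copy lay 66 to 62 bases before the start, and the TATAAA motif 33 to 28 bases before it. TGACATCA, the variant through which Jun and ATF proteins are known to act on the Jun promoter, was found in Jun and Klf6 and in 2.93% of all windows. The CArG box, the binding motif of serum response factor, matched in 0 of the 7 windows and in 1.47% of all. The AP-1 motif TGAGTCA matched in 0 of the 7 and in 4.46% of all. Only the bases inside each window were searched, so a site farther upstream would have been missed. Egr1, Ier2 and Myc had no matched promoter sequence. The counts of 0 therefore do not show that the members lack these sites. These motifs were chosen after the sequences had been seen, and a match describes letters only.

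The deposited Ensembl identifiers placed the members on the GENCODE M21 annotation of GRCm38 as protein-coding genes, among them Myc at chr15:61985391-61990374 on the plus strand and Ier2 at chr8:84661331-84662852 on the minus strand. The gene model of Dusp1, chr17:26505590-26562128 on the minus strand, reaches beyond the RefSeq start used for its promoter. By mean TPM over the 12 libraries the order was Ier2 (15.7), Dusp1 (11.6), Junb (8.03), Jun (3.33), Myc (2.77), Egr1 (1.68), Klf6 (1.05), Fos (0.496), Ier3 (0.493) and Fosb (0.03). Of the 9 pairs of neighbours in this order, only Ier3 and Fosb had ranges over the 12 libraries that did not overlap. Junb exceeded Jun in 11 of 12 libraries and Klf6 exceeded Fos in 11 of 12. Dusp1 exceeded Junb in 9 of 12, while Ier3 lay above Fos in 8 of 12. Ier2, the highest member, had a higher mean than 70.5% of the tested genes, and Klf6 than 1.23% of them. Fos, Ier3 and Fosb averaged below 1 TPM and did not pass the filter, so their fold changes come from a fit of all genes above 0 in any library.

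**Figure D1:**
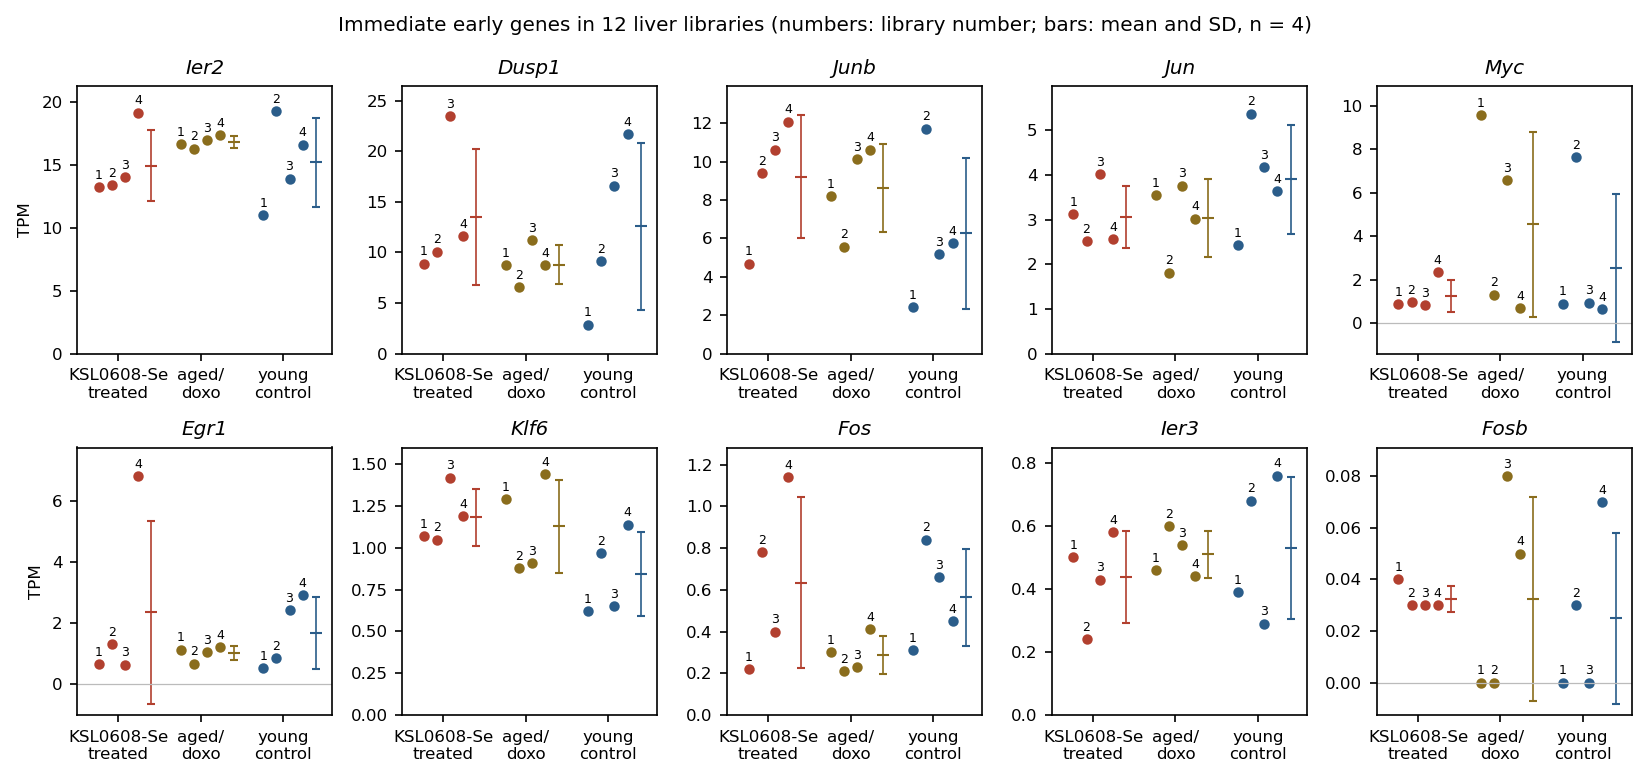
TPM (vertical axis, linear) of the 10 members, in order of mean level, in each of the 4 numbered libraries of the KSL0608-Se treated, aged/doxo and young control groups. Bars show the mean and SD (n = 4). The groups overlap in all members, and Myc is above 5 TPM in 3 libraries of 2 groups.

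Fos, a leucine-zipper subunit of AP-1, was low throughout. It stood at 0.22, 0.78, 0.4 and 1.14 TPM in KSL0608-Se treated libraries 1 to 4, at 0.3, 0.21, 0.23 and 0.41 TPM in aged/doxo libraries, and at 0.31, 0.84, 0.66 and 0.45 TPM in young control libraries. The aged/doxo libraries lay in a narrow low range that overlapped the lowest libraries of both other groups. The log2 fold change on the log2(TPM + 1) scale, which understates the change of genes this low, was -0.27 for aged/doxo against young control (SE 0.17, limma adjusted p = 1, exact permutation p = 0.0571). It was 0.31 for KSL0608-Se treated against aged/doxo (SE 0.17, limma adjusted p = 0.6, exact permutation p = 0.2). Fosb, its close relative, was listed at 0 in aged/doxo libraries 1 and 2 and young control libraries 1 and 3. Its other values were 0.03 to 0.04 TPM in KSL0608-Se treated, 0.05 and 0.08 TPM in aged/doxo and 0.03 and 0.07 TPM in young control libraries, too low for a fold change.

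Jun, which can form AP-1 with itself or with Fos proteins, stood at 3.12, 2.52, 4.01 and 2.56 TPM in KSL0608-Se treated libraries, at 3.54, 1.81, 3.76 and 3.02 TPM in aged/doxo libraries and at 2.43, 5.37, 4.18 and 3.64 TPM in young control libraries. The highest value belonged to young control library 2 and the lowest to aged/doxo library 2. Mean levels (± SD, n = 4 each) were 3.05 ± 0.695 TPM in KSL0608-Se treated libraries, 3.03 ± 0.872 TPM in aged/doxo libraries and 3.91 ± 1.22 TPM in young controls. The log2 fold change was 0.02 for KSL0608-Se treated against aged/doxo (95% interval -0.48 to 0.52), and -0.28 for aged/doxo against young control (interval -0.78 to 0.23). For KSL0608-Se treated against young control it was -0.26 (interval -0.76 to 0.25, limma adjusted p = 0.734). The medians over all tested genes were 0.30, -0.08 and 0.23 in this order. With median-of-ratios scaling the Jun values were -0.25, -0.21 and -0.46, the last with an unadjusted limma p of 0.00658 (adjusted p = 0.956).

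Junb, a Jun relative with weaker transactivation, stood at 4.68, 9.4, 10.62 and 12.08 TPM in KSL0608-Se treated libraries, at 8.2, 5.56, 10.12 and 10.62 TPM in aged/doxo libraries, and at 2.41, 11.71, 5.16 and 5.75 TPM in young control libraries. Young control library 2 was at the level of the highest treated library, young control libraries 3 and 4 lay among the lowest of both other groups, and young control library 1 lay below every other library. The means were 9.20 ± 3.20 TPM in KSL0608-Se treated libraries, 8.63 ± 2.29 TPM in aged/doxo libraries and 6.26 ± 3.92 TPM in young controls. Junb had the smallest limma p of the 7 tested members in 2 comparisons. Its log2 fold change was 0.53 for aged/doxo against young control (SE 0.37, unadjusted p = 0.18, adjusted p = 1) and 0.58 for KSL0608-Se treated against young control (SE 0.37, unadjusted p = 0.144, adjusted p = 0.734). Without young control library 1 these were 0.22 and 0.27, and without young control library 2 they were 0.85 and 0.90.

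Egr1, a zinc-finger transcription factor induced by serum and growth factors, stood at 0.65, 1.31, 0.64 and 6.79 TPM in KSL0608-Se treated libraries, at 1.13, 0.68, 1.06 and 1.21 TPM in aged/doxo libraries, and at 0.53, 0.86, 2.43 and 2.92 TPM in young control libraries. KSL0608-Se treated library 4 stood above all others, and the next highest were young control libraries 4 and 3. The same library held the highest values of Fos and Junb. Of the 7 tested members 2 were highest there, beside 24.4% of all tested genes and 2 of 27 other immediate early genes. The treated mean of 2.35 ± 2.98 TPM, against 1.02 ± 0.235 TPM in aged/doxo libraries, rests on it: the log2 fold change was 0.39 (SE 0.46, limma adjusted p = 0.576) and -0.13 without that library.

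Klf6, a Krüppel-like zinc-finger factor, was among the steadiest members. It stood at 1.07, 1.05, 1.42 and 1.19 TPM in KSL0608-Se treated libraries, at 1.29, 0.88, 0.91 and 1.44 TPM in aged/doxo libraries and at 0.62, 0.97, 0.65 and 1.14 TPM in young control libraries. All 4 treated libraries lay above 3 of the 4 young control libraries, and the groups overlapped through young control library 4. The log2 fold change was 0.25 for KSL0608-Se treated against young control (interval -0.13 to 0.62, limma adjusted p = 0.734, exact permutation p = 0.0857). It was 0.21 for aged/doxo against young control (interval -0.17 to 0.58). Across all tested genes the median was 0.23 for the first of these comparisons and -0.08 for the second. In that order, Klf6 was 0.11 and 0.27 with median-of-ratios scaling, and 0.09 and 0.24 with quantile normalization. Groups that did not overlap were found for 0 of the 9 members in any comparison. Over all tested genes that share was 1% for aged/doxo against young control, 3.13% for KSL0608-Se treated against aged/doxo and 4.02% for KSL0608-Se treated against young control.

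Ier2, a nuclear product of the early response, stood at 13.24, 13.4, 14.06 and 19.17 TPM in KSL0608-Se treated libraries, at 16.68, 16.3, 17 and 17.39 TPM in aged/doxo libraries and at 11.03, 19.31, 13.93 and 16.63 TPM in young control libraries. The aged/doxo libraries were nearly alike (16.8 ± 0.464 TPM), above 3 of the 4 treated libraries and below the fourth. For KSL0608-Se treated against aged/doxo the log2 fold change was -0.18 (interval -0.60 to 0.25, limma adjusted p = 0.565, exact permutation p = 0.143). Ier3, an early gene that acts on cell survival and ERK signalling, lay between 0.24 and 0.58 TPM in KSL0608-Se treated, 0.44 and 0.6 TPM in aged/doxo and 0.29 and 0.76 TPM in young control libraries. Its log2 fold changes ranged from -0.08 to -0.01, with all 3 intervals inside -0.34 to 0.24.

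Dusp1, the phosphatase that inactivates p38 and JNK, stood at 8.89, 10.09, 23.47 and 11.58 TPM in KSL0608-Se treated libraries, at 8.73, 6.53, 11.19 and 8.75 TPM in aged/doxo libraries, and at 2.86, 9.15, 16.6 and 21.72 TPM in young control libraries. Young control liver held both the lowest library and the second highest. It averaged 13.5 ± 6.73 TPM in KSL0608-Se treated libraries, 8.8 ± 1.90 TPM in aged/doxo libraries and 12.6 ± 8.29 TPM in young controls. The log2 fold change was 0.49 for KSL0608-Se treated against aged/doxo (interval -0.52 to 1.5, limma adjusted p = 0.508, exact permutation p = 0.143). Across all tested genes that comparison had a median of 0.30.

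Myc, the growth-promoting factor that binds DNA with Max, varied most between libraries of 1 group. It stood at 0.88, 0.96, 0.82 and 2.35 TPM in KSL0608-Se treated libraries, at 9.59, 1.3, 6.59 and 0.69 TPM in aged/doxo libraries, and at 0.89, 7.63, 0.94 and 0.63 TPM in young control libraries. In 3 libraries it was above 5 TPM, in 7 below 1 TPM, and in KSL0608-Se treated library 4 and aged/doxo library 2 in between. The highest library held 15.2 times the level of the lowest. The log2 fold change was -0.95 for KSL0608-Se treated against aged/doxo (interval -2.29 to 0.39, limma adjusted p = 0.427, exact permutation p = 0.257). It was 0.65 for aged/doxo against young control (interval -0.69 to 1.99, limma adjusted p = 1). Without aged/doxo library 1 these values were -0.51 and 0.21, and with the slope on gene length as a covariate the first was -1.95.

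**Figure D2:**
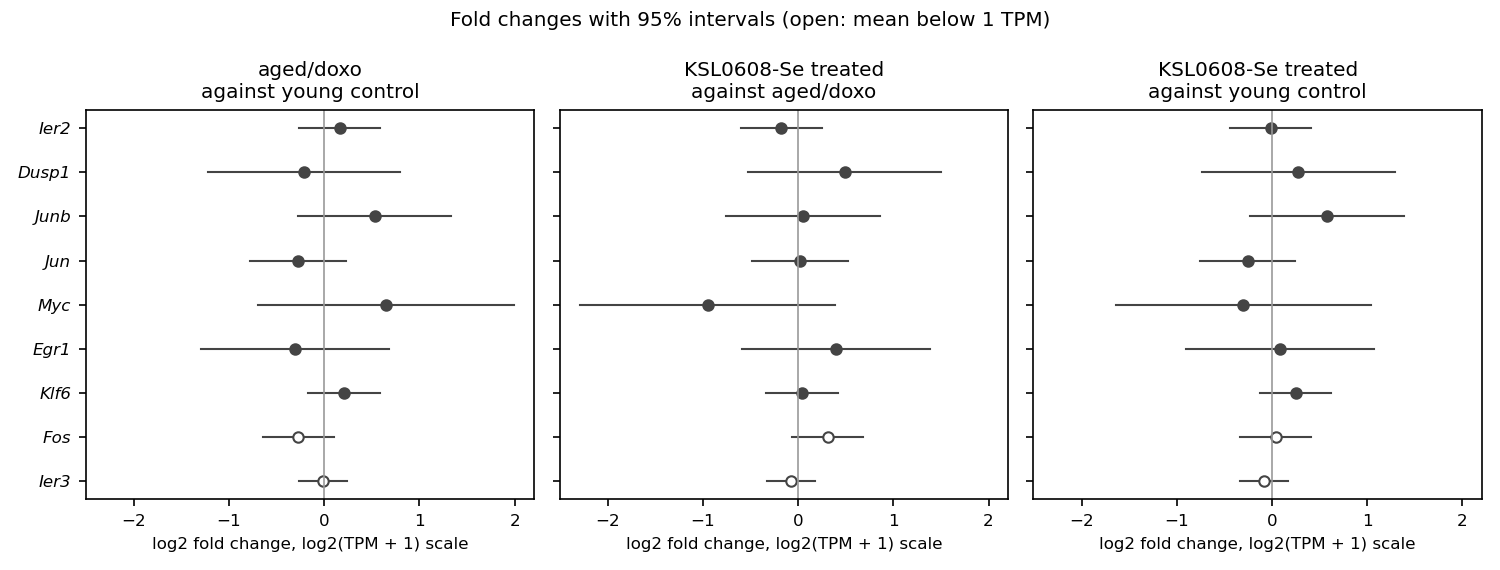
Log2 fold change on the log2(TPM + 1) scale (horizontal axis) of 9 members in the 3 comparisons, with 95% intervals from limma. Filled points are members that averaged at least 1 TPM and open points are Fos and Ier3. All 27 intervals include 0, and the widest belong to Myc.

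The spread within groups differed strongly between members. The within-group SD of log2(TPM + 1) was 1.02 for Myc, 0.75 for Dusp1, 0.73 for Egr1 and 0.59 for Junb, against a median of 0.38 over all tested genes. It was 0.32 for Jun, 0.23 for Ier2 and 0.17 for Klf6. Of the tested genes 96.7% had a smaller SD than Myc, 92.5% a smaller one than Dusp1 and 3.83% a smaller one than Klf6. Klf6 is also the lowest of the 7, and values near the pseudocount are compressed on this scale.

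The genes that shared the Myc pattern were looked up after its values had been seen. By Pearson r of log2(TPM + 1) over the 12 libraries, used as a measure of likeness only, the 8 genes most like Myc began with Socs3 (0.96), Foxq1 (0.92), Gadd45g (0.88) and Phlda1 (0.86). Socs3 encodes a feedback inhibitor of JAK-STAT cytokine signalling, Foxq1 a forkhead transcription factor and Gadd45g a growth-arrest and DNA-damage-inducible protein. Socs3 stood at 0.81, 1.2, 1.13 and 3.39 TPM in KSL0608-Se treated libraries, at 6.22, 2.75, 6.43 and 1.35 TPM in aged/doxo libraries and at 1.01, 7.64, 1.24 and 0.84 TPM in young control libraries. The 5 libraries with the most Socs3 were also the 5 with the most Myc. Gadd45g stood at 4.17, 2.92, 6.41 and 52.9 TPM in KSL0608-Se treated libraries, at 73.9, 31.6, 89.0 and 5.04 TPM in aged/doxo libraries, and at 4.86, 52.2, 6.84 and 5.22 TPM in young control libraries. Of the 8 genes, 3 were in the list of other immediate early genes (Socs3, Gadd45g and Csrnp1). That list holds 27 of the 10883 tested genes. It was chosen with earlier results of these data known, so the overlap is a description and no test. None of the 3 libraries above 5 TPM of Myc, a cut chosen after the values were seen, is one of the pair that stood apart. Aged/doxo library 2, which belongs to that pair, held 1.3 TPM of Myc and 2.75 TPM of Socs3. It was among the 5 libraries highest in both genes. The part of library quality in the pattern was not tested.

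**Figure D3:**
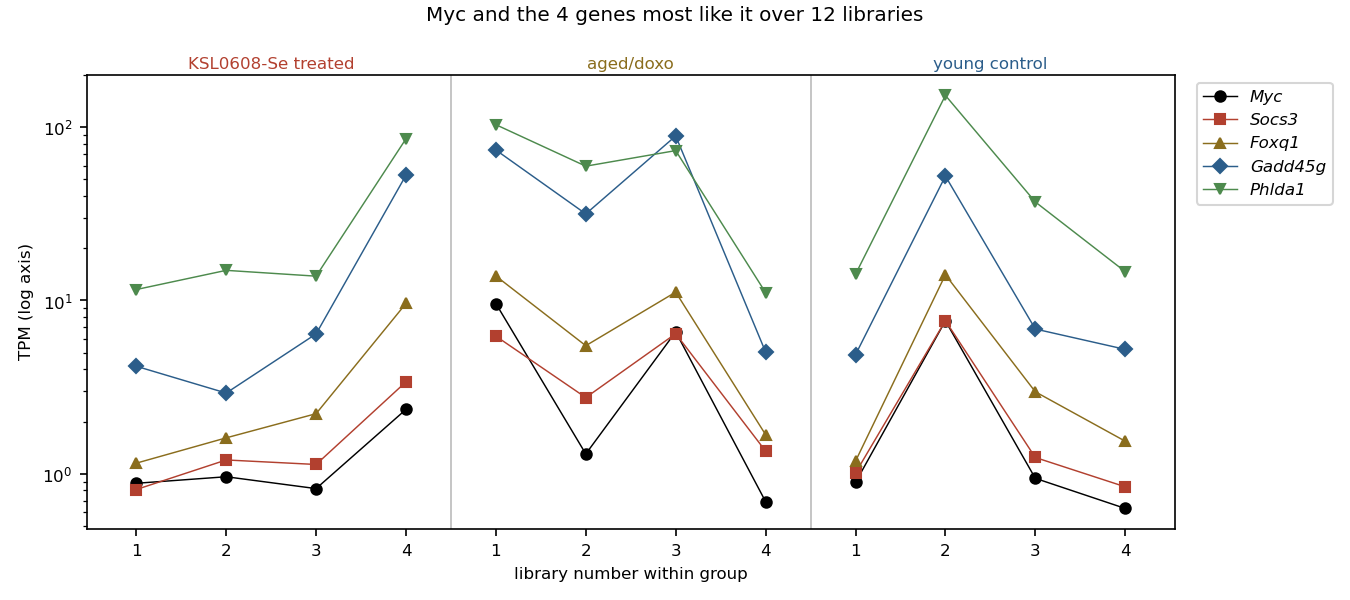
TPM (vertical axis, log scale) of Myc and the 4 genes most like it, in each library of the KSL0608-Se treated, aged/doxo and young control groups (horizontal axis, library number). Lines join libraries of a group only to guide the eye. All 5 genes peak within their group in treated library 4 and young control library 2, and are lowest of the aged/doxo libraries in library 4.

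Whether members varied together between libraries depended on the scaling. Of the 21 pairs among the 7 tested members, the 6 with Myc are not described, since its values fall into separate clusters of libraries. Of the other 15, 14 had a positive Pearson r over the 12 libraries, against 9 after quantile normalization. After Benjamini-Hochberg adjustment over the 21 pairs 0 passed (2 had an unadjusted permutation p under 0.05). Junb and Ier2 had the highest correlation (r = 0.739, permutation p = 0.00566, adjusted p = 0.119; Spearman rho = 0.816, permutation p = 0.00181, adjusted p = 0.038; n = 12). Without KSL0608-Se treated library 1 and young control library 1, which lie farthest from the median of Junb, r was 0.407 (permutation p = 0.242), so the pooled r rests in part on those 2 libraries. With group means removed r was 0.818 (adjusted permutation p = 0.0305), and after quantile normalization it was 0.333. For the p with group means removed, all 12 deviations were shuffled freely, though they sum to 0 within each group. That p is therefore too small and is not read as a pass. Jun and Dusp1 had r = 0.519 (permutation p = 0.0811, adjusted p = 0.355) and rho = 0.608 (permutation p = 0.0395, adjusted p = 0.388). Their r was 0.702 without aged/doxo library 2 and young control library 2, and 0.0616 after quantile normalization (permutation p = 0.85). No batch is named in the labels, so no within-batch value can be given.

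**Figure D4:**
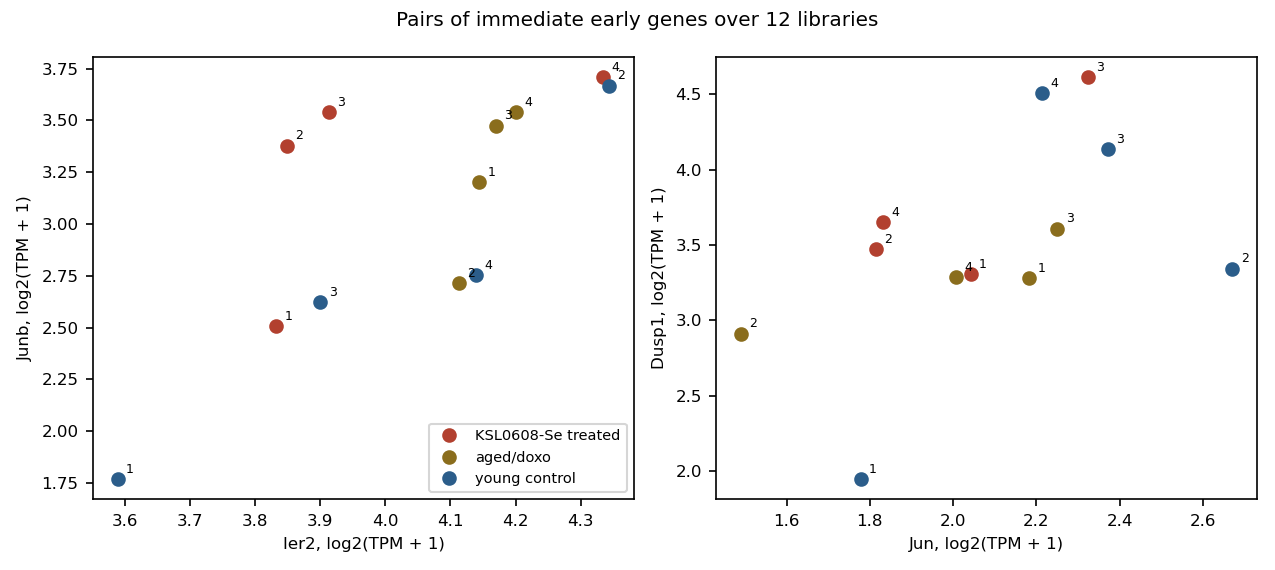
Junb against Ier2 and Dusp1 against Jun, each on the log2(TPM + 1) scale, with 1 point per numbered library and colours for the 3 groups. Young control library 1 lies at the low end of both panels, and the 2 highest libraries of Junb are also the 2 highest of Ier2.

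The members were also set beside a property of each library. In each library the slope of log2(TPM + 1) on log2 gene length was taken over all tested genes, and it ranged from -0.473 in aged/doxo library 2 and -0.472 in young control library 1 to -0.229 in KSL0608-Se treated library 4. Junb followed it most closely of the 7 tested members (r = 0.684, permutation p = 0.0141, adjusted p = 0.099 over 7; rho = 0.753, permutation p = 0.00621, adjusted p = 0.0435). Without the 2 libraries of lowest slope r was 0.478 (permutation p = 0.159). For the other members apart from Myc r lay between 0.376 and 0.546, with adjusted permutation p of at least 0.221. The part of this slope in the member values was not tested.

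By the rule for likeness, genes were ranked by their Pearson r over the 12 libraries with the mean of the 7 standardised members. The highest were Foxj2 (0.96), Ttc7 (0.94), Mcrs1 (0.94), Ccdc157 (0.93), Hdac5 (0.93), Get1 (0.93), Mast3 (0.93) and Maml1 (0.92). None of them is an immediate early gene of the lists used here. Foxj2 ranged from 0.77 to 1.75 TPM and Hdac5, a histone deacetylase, from 13.6 to 29.2 TPM. For the members other than Myc, r with the mean of the remaining 6 was 0.79 for Junb, 0.73 for Ier2, 0.51 for Dusp1, 0.46 for Klf6, 0.41 for Jun and 0.29 for Egr1.

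Of 40 other immediate early genes, 27 averaged at least 1 TPM and 0 passed the adjusted threshold in either direction in any comparison. The median log2 fold change of these 27 was 0.14 for aged/doxo against young control, beside -0.08 over all tested genes. It was 0.18 for KSL0608-Se treated against aged/doxo, beside 0.30, and 0.31 for KSL0608-Se treated against young control, beside 0.23. Plk2, a polo-like kinase also known as a p53 target, had their smallest unadjusted limma p (0.00113, KSL0608-Se treated against young control). It stood at 5.99, 8.73, 8.9 and 5.06 TPM in KSL0608-Se treated, at 6.52, 3.58, 4.76 and 4.15 TPM in aged/doxo and at 1.45, 3.01, 2.43 and 4.56 TPM in young control libraries. All treated libraries lay above all young control libraries, and the log2 fold change was 1.11 (SE 0.27, limma adjusted p = 0.687). Groups that do not overlap were found for 4.02% of all tested genes in that comparison. Sgk1, a kinase induced by serum and glucocorticoids, averaged 10.1 ± 2.16 TPM in KSL0608-Se treated and 5.4 ± 2.57 TPM in aged/doxo libraries, with a log2 fold change of 0.86 (limma adjusted p = 0.427). Nr4a1, an orphan nuclear receptor below the filter, was highest in KSL0608-Se treated library 4 (1.59 TPM), as were Fos and Egr1.

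The upstream cascade and the feedback genes gave no call either. Of 33 MAP kinase cascade and serum response genes, 29 passed the filter and 0 were called. Their median log2 fold change was -0.10 for aged/doxo against young control, 0.38 for KSL0608-Se treated against aged/doxo and 0.25 for KSL0608-Se treated against young control, beside -0.08, 0.30 and 0.23 over all tested genes. Srf, which encodes serum response factor, averaged 3.12 ± 1.86 TPM in aged/doxo libraries and 4.67 ± 1.96 TPM in young controls, a log2 fold change of -0.49 with an SE of 0.33 (limma adjusted p = 1). Egfr, the receptor of epidermal growth factor, averaged 46.5 ± 20.1 TPM in aged/doxo libraries and 68.8 ± 18.8 TPM in young controls, with a log2 fold change of -0.66 (limma adjusted p = 1).

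Of 16 MAP kinase phosphatases and feedback inhibitors, 11 passed the filter and 0 were called, with medians of -0.11, 0.34 and 0.30 in the same order of comparisons. Dusp6, the phosphatase specific for ERK, had the smallest p. It stood at 9.82, 13.03, 16.49 and 8.51 TPM in KSL0608-Se treated, at 7.18, 4, 8.99 and 4.59 TPM in aged/doxo, and at 4.25, 7.7, 7.76 and 9.54 TPM in young control libraries. The treated and aged/doxo groups overlapped through treated library 4 and aged/doxo library 3. The log2 fold change was 0.87 for KSL0608-Se treated against aged/doxo (SE 0.29, limma adjusted p = 0.427) and 0.65 for KSL0608-Se treated against young control (limma adjusted p = 0.734).

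Genes that act with or after the members gave no call either. Of 14 AP-1 and ATF partners 7 passed the filter, of 24 MYC partners and targets 20, and of 20 AP-1 and EGR1 targets 11, and 0 of each were called in any comparison. Their medians for KSL0608-Se treated against aged/doxo were 0.10, 0.26 and 0.10, beside 0.30 over all tested genes. In any comparison, 0 genes of these 3 lists had an unadjusted limma p under 0.05. That share of all tested genes was 1.98% for aged/doxo against young control. It was 4.77% for KSL0608-Se treated against aged/doxo and 3.4% for KSL0608-Se treated against young control. Cxcl1, a neutrophil-attracting chemokine and AP-1 target, averaged 2.89 ± 0.661 TPM in KSL0608-Se treated libraries and 5.01 ± 1.87 TPM in aged/doxo libraries, a log2 fold change of -0.59 (limma adjusted p = 0.427). The nucleolar MYC target Nop56 averaged 11.3 ± 1.89 TPM in KSL0608-Se treated libraries and 16.1 ± 5.77 TPM in aged/doxo libraries, a log2 fold change of -0.42 (limma adjusted p = 0.427). Its highest value, 23.24 TPM, was in aged/doxo library 2. Most genes of both lists went the other way: 15 of the 20 MYC genes and 8 of the 11 AP-1 and EGR1 targets were positive, beside 8812 of all 10883 tested genes. Mycl (0.52) and Rrp9 (0.34), both higher, had smaller unadjusted limma p than Nop56.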

How the data were processed

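Liver RNA of 12 libraries was measured by RNA-seq. The deposited values are TPM made by the authors, scaled to a fixed total per library. fastp, HISAT and RSEM were used, per the submitters' processing notes, which give no versions. The sources used here give no build, annotation or strandedness. The gene length is the deposited other column used. Values were analysed as log2(TPM + 1). Genes averaging at least 1 TPM were kept. limma 3.58.1 in R 4.3.3 fitted group alone over all 12 libraries with a trend of variance on level, two-sided, with Benjamini-Hochberg adjustment at 0.05. The fit was also run on simulated data, with each gene drawn independently from a normal distribution. Shifts shared by the genes of a library were not simulated, so that run does not cover them. Correlations used 100000 permutations (numpy 2.4.6, scipy 1.17.1), and figures matplotlib 3.10.9. No libraries were identical. Members and lists were chosen with earlier results of these data known. Named genes were all members, up to 4 of smallest p for each list in each comparison, and the 8 most alike. Others were chosen after their values were seen. The symbols Cyr61, Ctgf, Mkl1 and Mkl2 of the lists were matched to Ccn1, Ccn2, Mrtfa and Mrtfb. Alternatives covered pseudocount, filter, scaling, block, covariate and left-out libraries.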

Additional observations from a re-analysis of the deposited data

Results flagged for a closer look

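Of 30 groups of 4 libraries (10 members in 3 groups), 5 held a library whose gap to its nearest neighbour took up most of the group's range. For independent, normally distributed values chance flags about 1 group in 20, or 1.5 here. The rule was applied to raw TPM of members that share libraries, so 5 beside 1.5 is no test of an excess. In KSL0608-Se treated library 4, Egr1 stood at 6.79 TPM, Ier2 at 19.17 TPM and Myc at 2.35 TPM, each above the other 3 libraries of the group. In young control library 2, Myc stood at 7.63 TPM, against no more than 0.94 TPM in the others. Fosb stood at 0.04 TPM in KSL0608-Se treated library 1 and at 0.03 TPM in the other 3, a gap of 1 unit in the last deposited decimal.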

How the results depend on the processing

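Under the 21 alternatives to the limma fit, 0 members were called in any comparison, including with the replicate number as a block (0 called), and the smallest adjusted p of a member was 0.362. The block changed no call of a member, as 0 were called without it. Of 12 same-number correlations of deviations from group means, 2 exceeded 0.1 (range -0.58 to 0.39). Such deviations sum to 0 within each group, so these correlations cannot settle whether the numbers pair the libraries. At an unadjusted p under 0.05, 1 or 2 members passed in each comparison with median-of-ratios scaling, quantile normalization or the covariate. Of all tested genes, 1.55% to 5.49% passed there. In KSL0608-Se treated against young control, Jun also passed without both libraries that stood apart, beside 3.72% of all tested genes. Junb or Myc passed when KSL0608-Se treated library 1, aged/doxo library 4 or young control library 2 was left out. In the fits where they passed, 2.02% to 6.07% of all tested genes did so. The sign of an uncalled fold change turned in 54 of 543 single-member results. For KSL0608-Se treated against aged/doxo, Jun, Junb and Klf6 were -0.248, -0.288 and -0.162 with median-of-ratios scaling, -0.225, -0.243 and -0.151 with quantile normalization, -0.247, -0.541 and -0.0416 with the slope on gene length as covariate, and -0.143, -0.122 and -0.0158 with both libraries that stood apart (young control 1, aged/doxo 2) left out. These scalings and the covariate brought the median of all genes in that comparison to -0.01, 0.03 and 0.02. For KSL0608-Se treated against young control, Fos and Egr1 were -0.0528 and -0.0571, -0.0487 and -0.118, -0.0874 and -0.150, and -0.0402 and -0.147 under the same 4 settings, and Dusp1 was -0.0275 and -0.235 under the last 2. Ier3 for aged/doxo against young control was 0.0199 with a pseudocount of 0.1, 0.0552 with median-of-ratios scaling and 0.00447 with the covariate. The cause was not tested. The number of member pairs with an adjusted p under 0.05 was 1 with group means removed, by the free shuffling that makes p too small.

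Leaving out each library in turn moved an uncalled log2 fold change over 1.5 times without a change of sign in 73 cases, in 24 of the member comparisons. Those that turned sign ranged as follows. For aged/doxo against young control, Ier3 ranged from -0.0865 to 0.0630 and Dusp1 from -0.724 to 0.129. For KSL0608-Se treated against aged/doxo, Jun ranged from -0.143 to 0.110, Junb from -0.122 to 0.310, Egr1 from -0.125 to 0.624 and Klf6 from -0.0158 to 0.110. For KSL0608-Se treated against young control, Fos ranged from -0.0994 to 0.171, Egr1 from -0.433 to 0.316, Ier2 from -0.146 to 0.105, Myc from -0.539 to 0.263 and Dusp1 from -0.235 to 0.618. The depth is unknown, so no counting error can be given for Fos, Ier3 and Fosb, which averaged below 1 TPM.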

Other observations

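Young control library 1 held the lowest value of 5 of the 7 tested members and of 18 of the 27 other immediate early genes that passed the filter, while 21.4% of all tested genes were lowest there. Aged/doxo library 2 held the lowest value of 1 of the 7 members and 4 of those 27 genes, while 54.8% of all tested genes were lowest there. The summed TPM of the 10 members was 33.3, 39.8, 55.9 and 57.5 in KSL0608-Se treated libraries, 49.9, 33.9, 51.5 and 44.0 in aged/doxo libraries, and 21.5, 56.6, 44.8 and 53.7 in young control libraries. Egr2, a relative of Egr1 below the filter, stood at 1.23 TPM in KSL0608-Se treated library 3 and at no more than 0.23 TPM in any other library.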
